A study of Homo sapiens with 10 samples.

Results

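The RASSF genes (Ras association domain family) code for scaffold proteins without enzyme activity, and RASSF1 is among the tumour suppressor genes most often silenced in human carcinomas. The proteins carry a domain that binds Ras-type GTPases in their active state. RASSF1 to RASSF6, the classical members, also end in a SARAH helix, with which they pair with the kinases MST1 and MST2 (genes STK4 and STK3) of the Hippo pathway. RASSF7 to RASSF10, the N-terminal members, have the Ras association domain at their front end and lack the SARAH helix. The 10 genes RASSF1 to RASSF10 were taken by name from a table of 20263 genes, and all 10 were listed. The family was selected on the TPM of RASSF1, which stood among the strongest increases of LY over DMSO, so the differences of the members between the groups are given below as a description, without p-values.

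The libraries came from PANC-1, an established cell line from a human pancreatic carcinoma. One group of 5 libraries came from cells exposed for 24 h to 20 µM LY, which is lycorine, a plant alkaloid known to block protein synthesis. The other 5 libraries came from cells that received DMSO, the solvent, and their columns are named NC-1 to NC-5. No genetic change, clone or second agent is named for either group, and the comparison asks how LY changes transcript levels in these cells. No source says that the libraries of a group are separate cultures, so p-values below reflect library-to-library spread, which may be technical.

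Levels are deposited TPM, a relative transcript abundance scaled for transcript length and library total, so that genes can be compared with each other. TPM carries no read totals, and the depth behind each value is unknown. The epithelial keratins KRT8 and KRT18 were abundant in every library (at least 1069 and 664 TPM), KRT19 measured 15.8 to 24.6 TPM in LY and 123 to 166 TPM in DMSO, KRT7 stayed under 1 TPM and EPCAM under 2 TPM. All 3 acinar and both endocrine markers were listed at 0 throughout, and CDKN2A, a gene known to be deleted in PANC-1, was listed at 0 as well. Summed markers of other cells stayed low, with 0 to 0.113 TPM in LY and 0.340 to 0.559 TPM in DMSO for 4 leukocyte genes, 0.298 to 0.601 TPM in LY and 2.60 to 3.85 TPM in DMSO for 3 fibroblast genes, and 2.74 to 3.32 TPM in LY and 0.0988 to 0.535 TPM in DMSO for 3 endothelial genes (mostly CDH5). Their part in the results was not tested. The mitochondrial genome gave 37.5% of the TPM of control library NC-2, against 12.2% to 14.1% in the other 4 controls and 6.43% to 14.9% in LY. NC-2 therefore stands apart, and values without it are given for some of the results only. A lower level in bulk RNA may mean fewer cells with the transcript or less of it per cell, and these data cannot separate the 2.

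RASSF1 lies on the minus strand of chromosome 3 (hg38, 50329782 to 50340980) and is transcribed from more than 1 start. GENCODE release 29 lists 5 coding transcripts with 5 starts spread over 3472 bases, and the deposited table gives 1 value for the whole gene. The long form RASSF1A and the short form RASSF1C, which begins inside the gene, therefore cannot be told apart here. DNA methylation at CpG pairs of start regions is the known route by which RASSF1A and several relatives are silenced in tumours. RefSeq start regions (GRCh38.p14) were at hand for 7 members, with 9 starts in all. Shown are 4 stretches just upstream of listed starts, with each CpG in capitals. Of these, 2 come from members with clear expression (RASSF1 and RASSF3) and 2 from low or undetected members (RASSF2 and RASSF6). For RASSF6, 1 of 2 listed starts is shown, so the 4 stretches are no comparison of expressed with silent members. They cover chr3:50337465-50337700 (minus strand), chr12:64610245-64610494 (plus), chr20:4815148-4815397 (minus) and chr4:73620632-73620881 (minus).
RASSF1: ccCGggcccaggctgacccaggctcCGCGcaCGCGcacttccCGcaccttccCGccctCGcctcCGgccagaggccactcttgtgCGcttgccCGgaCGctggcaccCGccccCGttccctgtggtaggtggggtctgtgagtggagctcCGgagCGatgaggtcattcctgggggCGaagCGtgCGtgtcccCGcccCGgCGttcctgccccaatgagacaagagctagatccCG
RASSF3: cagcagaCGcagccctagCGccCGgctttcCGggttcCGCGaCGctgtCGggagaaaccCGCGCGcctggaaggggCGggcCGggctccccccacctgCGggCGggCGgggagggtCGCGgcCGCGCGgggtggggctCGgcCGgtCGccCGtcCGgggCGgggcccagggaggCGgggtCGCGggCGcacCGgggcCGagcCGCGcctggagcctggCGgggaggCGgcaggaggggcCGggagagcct
RASSF2: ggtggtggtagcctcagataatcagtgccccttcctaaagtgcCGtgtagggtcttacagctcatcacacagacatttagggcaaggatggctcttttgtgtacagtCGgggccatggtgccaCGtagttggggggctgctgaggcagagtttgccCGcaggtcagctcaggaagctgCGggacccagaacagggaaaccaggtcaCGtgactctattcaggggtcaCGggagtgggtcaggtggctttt
RASSF6: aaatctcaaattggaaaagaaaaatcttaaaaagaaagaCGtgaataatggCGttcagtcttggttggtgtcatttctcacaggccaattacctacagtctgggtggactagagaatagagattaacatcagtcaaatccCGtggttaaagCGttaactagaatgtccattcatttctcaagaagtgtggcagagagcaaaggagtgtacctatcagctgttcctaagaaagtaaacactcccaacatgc

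The RASSF1 stretch lies before a start inside the gene, 3486 bases downstream of the most upstream coding start, and it stops where the GENCODE exon of that start begins. The RASSF2 and RASSF3 stretches also lie before inner starts, 8498 and 103494 bases downstream of the most upstream one, and that of RASSF6 lies before the first. The start region of the long form RASSF1A was not at hand, so the RASSF1 counts that follow do not describe it. Over the full 250 bases upstream of each start, RASSF1 held 25 CpG, RASSF3 38, RASSF4 32, RASSF2 7 and RASSF9 5. The median over 35116 start regions was 11 CpG, and 78.4% of them had fewer CpG than RASSF1. RASSF5 had 23 CpG before one start and 10 before the other, and RASSF6 had 4 and 13. RASSF5, although one of its windows is rich in CpG, was under 1.2 TPM in every library. No methylation was measured. The TEAD motif GGAATG was found once in the RASSF1 window (both strands searched), and 11.9% of all start regions had at least 1 match. The GC box GGGCGG was found 3 times in the RASSF1 window, 4 times in that of RASSF3 and 9 times in that of RASSF4, and 42.6% of all start regions had at least 1. The AP-1 motif TGANTCA was absent from the RASSF1 window and present in 6.57% of all regions.

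RASSF1, the scaffold that joins Ras signals to the MST kinases and to microtubules, was the most abundant member in LY and only the third in DMSO. It measured 202, 239, 206, 223 and 249 TPM in the LY libraries (LY-1 to LY-5), against 22.2, 15.6, 21.4, 19.3 and 21.6 TPM in the DMSO libraries (NC-1 to NC-5). The groups lay far apart, and the lowest control value was that of NC-2. The means were 224 ± 20.5 TPM in LY and 20.0 ± 2.68 TPM in DMSO (SD, n = 5 each), a ratio of 11.2. On the log2(TPM + 1) scale the LY over DMSO difference was 3.42 ± 0.11 (SE of the limma fit), the 7th largest increase of 11663 tested genes. Without NC-2 it was 3.34. Among all 20263 genes ordered by mean level, RASSF1 stood at place 728 in LY and at place 5993 in DMSO. The libraries of a group differed little, with a highest-to-lowest ratio of 1.23 in LY and 1.42 in DMSO.

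**Figure D1:**
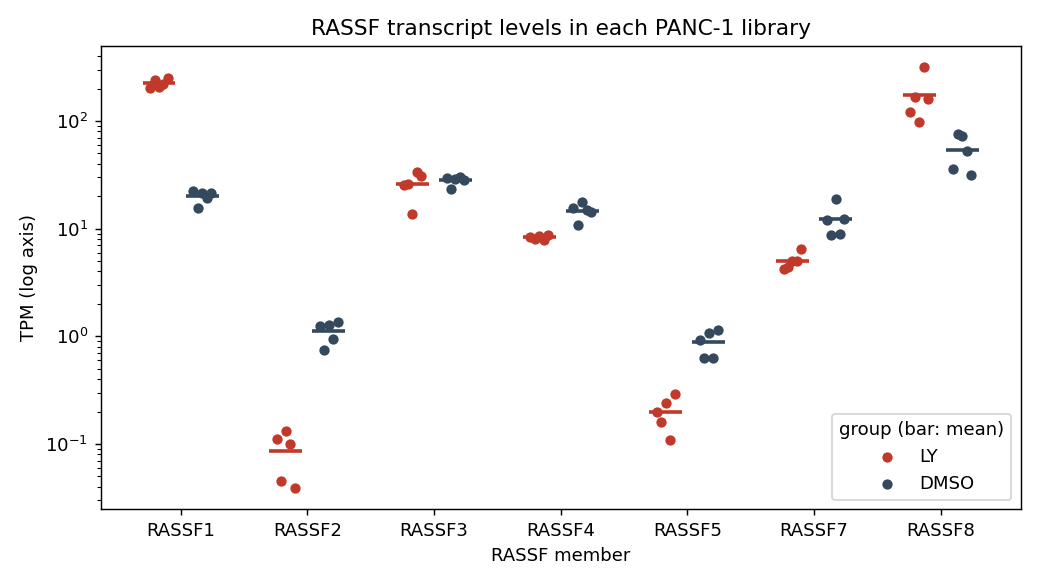
TPM (log axis) of the 7 RASSF members with a value above 0 in every library, LY left of DMSO, where each point is 1 library and each bar the mean of 5. RASSF1 and RASSF8 lie higher in LY, RASSF2, RASSF4, RASSF5 and RASSF7 lie lower, and the RASSF3 groups overlap.

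RASSF8 was the other member with higher values in LY. It is an N-terminal member known to sit at cell-cell junctions. It measured 122, 167, 98.4, 317 and 159 TPM in LY-1 to LY-5, against 35.6, 75.3, 72.9, 52.6 and 31.5 TPM in NC-1 to NC-5. The groups did not overlap, but both were wide: LY-4 was 3.22 times LY-3, and NC-2 was 2.39 times NC-5. The means were 173 ± 85.4 TPM in LY and 53.6 ± 20.4 TPM in DMSO (SD, n = 5 each), a ratio of 3.22, and the log2 difference was 1.64 ± 0.32. With 1 library left out at a time this difference ran between 1.39 (LY-4 out) and 1.81 (LY-3 out). An antisense gene, RASSF8-AS1, overlaps RASSF8, as RASSF1-AS1 overlaps RASSF1, and no source says whether counting used strand. RASSF8 also has the most transcripts of the family, with 13 coding ones from 10 starts.

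RASSF3 showed no clear difference. This classical member is known to act on the p53 regulator MDM2. It measured 25.5, 25.9, 13.7, 33.3 and 30.7 TPM in LY-1 to LY-5, against 29.5, 23.3, 28.6, 30.4 and 28.5 TPM in NC-1 to NC-5. The groups overlapped, with LY-3 below all other libraries and NC-2 below the other 4 controls. Means were 25.8 ± 7.51 TPM in LY and 28.1 ± 2.79 TPM in DMSO (SD, n = 5 each), and the log2 difference of -0.17 ± 0.20 was smaller than its error. It turned to 0.035 without LY-3. The ratio of RASSF1 to RASSF3 TPM within a library ran from 6.69 to 15.0 in LY and from 0.634 to 0.759 in DMSO.

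RASSF4 and RASSF7 were lower in LY. RASSF4, a classical member, measured 8.34, 7.996, 8.51, 7.87 and 8.69 TPM in LY-1 to LY-5, against 15.5, 10.8, 17.9, 14.8 and 14.2 TPM in NC-1 to NC-5. The LY libraries were close to each other and all lay under the lowest control, NC-2. The log2 difference was -0.74 ± 0.12 (means 8.28 ± 0.343 TPM in LY and 14.6 ± 2.55 TPM in DMSO, SD, n = 5 each), and -0.83 without NC-2. RASSF4 overlaps DEPP1 on the other strand, a gene that was lower in LY too (24.6 ± 4.24 TPM in LY and 66.3 ± 24.4 TPM in DMSO, n = 5 each; log2 difference -1.33 ± 0.23, limma adjusted p = 0.00034).

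RASSF7, an N-terminal member known from mitotic spindles and as an inhibitor of the stress kinase MKK7, measured 4.22, 4.36, 5.02, 4.97 and 6.42 TPM in LY-1 to LY-5. The controls held 12.1, 8.82, 19.0, 8.89 and 12.4 TPM in NC-1 to NC-5, all above the LY libraries, with NC-3 highest. Means were 4.999 ± 0.870 TPM in LY and 12.2 ± 4.13 TPM in DMSO (SD, n = 5 each), and the log2 difference was -1.10 ± 0.19. That difference ran from -1.20 to -0.94 with 1 library left out at a time. RASSF7 overlaps LMNTD2 on the other strand, which measured 0.762 ± 0.125 TPM in LY and 5.21 ± 1.46 TPM in DMSO (SD, n = 5 each). LMNTD2 reached 1 TPM in the controls only, so it entered the fit through that group and its difference is given without a test. Reads shared between such overlapping genes could not be assigned without knowing the counting rule. Their part in the RASSF4 and RASSF7 differences was not tested.

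The remaining 5 members were low or undetected and did not reach the filter of 1 TPM in 5 libraries. RASSF2, a classical member that binds the apoptosis protein PAR-4, measured 0.111, 0.04495, 0.132, 0.1002 and 0.0388 TPM in LY-1 to LY-5, against 1.24, 0.753, 1.28, 0.937 and 1.35 TPM in NC-1 to NC-5. Every LY library lay well under every control, with a control-to-LY ratio of means of 13.1. RASSF5, the Ras and Rap effector also called NORE1 and RAPL, measured 0.198, 0.159, 0.238, 0.109 and 0.289 TPM in LY-1 to LY-5, against 0.931, 0.635, 1.08, 0.635 and 1.13 TPM in NC-1 to NC-5. Its groups did not overlap either, and the ratio of control to LY means was 4.45. RASSF5 overlaps EIF2D, which is far more abundant (42.5 ± 7.64 TPM in LY and 46.5 ± 7.87 TPM in DMSO, n = 5 each) and did not pass the test (limma adjusted p = 0.474). RASSF6, known to bind MDM2 and the BAX activator MOAP1, was listed at 0 in 9 libraries and at 0.0188 TPM in NC-4. RASSF9, a vesicle protein known to bind the peptide-amidating enzyme PAM, was listed at 0 in all LY libraries and in 2 controls, and at 0.0195 to 0.0387 TPM in the other 3. RASSF10, known in tumours for promoter methylation, was listed at 0 in all 10 libraries.

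Seen together, the members did not move one way. Of the 5 members that passed the filter, 2 were called higher (RASSF1 and RASSF8), 2 lower (RASSF4 and RASSF7) and 1 did not pass (RASSF3) in the limma fit across all genes, at an adjusted p under 0.05. These calls are no test of the members, since the rise of RASSF1 in this same comparison chose the family. All 5 had at least 1 TPM in each of the 10 libraries, so none was let in by 1 group alone. Of all tested genes 64.6% were called, 39.8% higher and 24.9% lower, and nothing is read from the share within so few members. The same 4 members had groups without overlap, as had 49.4% of all tested genes (32.7% higher and 16.7% lower in LY). The median log2 difference was -0.17 over the 5 members and 0.17 over all tested genes. Relative to the median of all tested genes, the differences were 3.26 for RASSF1, 1.47 for RASSF8, -0.33 for RASSF3, -0.90 for RASSF4 and -1.27 for RASSF7. RASSF2 and RASSF5 would pass a filter of 0.5 TPM in 5 libraries, set after the values were seen, but through the controls alone. Their log2 differences of -0.95 ± 0.10 and -0.64 ± 0.10 in that fit are therefore a description, and a pseudocount of 1 shrinks differences at such low levels.

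**Figure D2:**
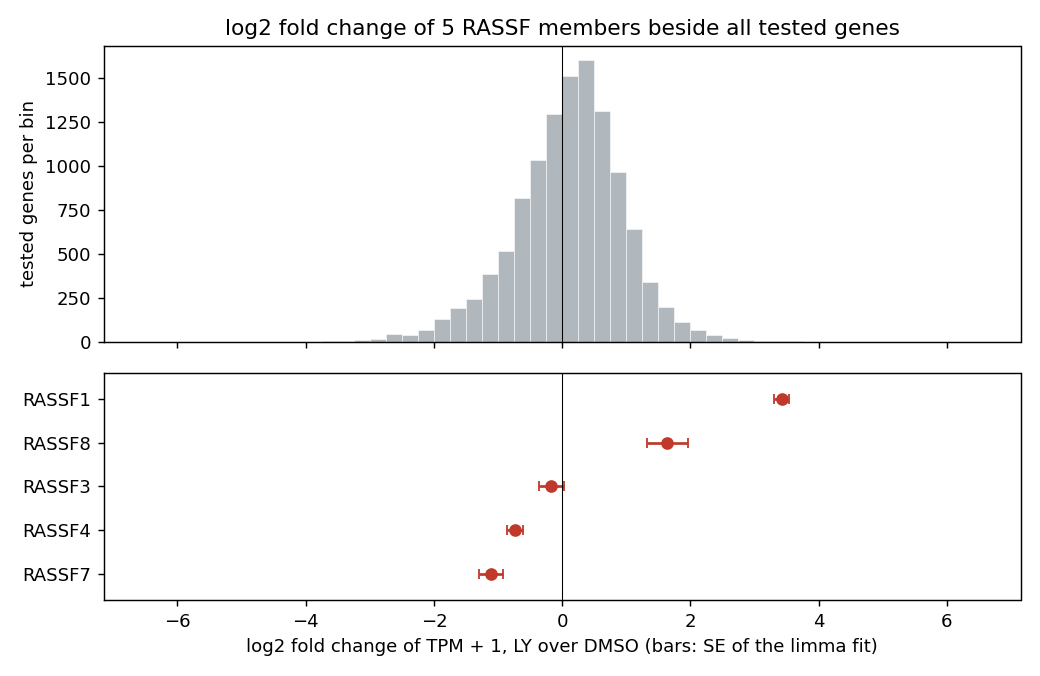
Top, number of tested genes per bin of log2 fold change (LY over DMSO, bin width 0.25). Bottom, the 5 tested RASSF members with the SE of the limma fit: RASSF1 at 3.42 lies at the right edge of the distribution, RASSF8 at 1.64, and RASSF4 and RASSF7 lie left of 0.

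The order of levels within the family differed between the groups. In DMSO, RASSF8 was highest in all 5 libraries (mean 53.6 TPM), followed by RASSF3 (28.1 TPM) and RASSF1 (20.0 TPM), each above the next in all 5 libraries. RASSF1 also exceeded RASSF4 (14.6 TPM) in all 5 controls, although their ranges overlapped. RASSF4 exceeded RASSF7 (12.2 TPM) in 4 of 5, and these neighbours did not differ beyond their spread. RASSF2 (1.11 TPM) and RASSF5 (0.883 TPM) followed, also with overlapping ranges, before the 3 members at or near 0. In LY, RASSF1 stood above RASSF8 in 4 of 5 libraries, with LY-4 the exception, and RASSF3, RASSF4, RASSF7, RASSF5 and RASSF2 followed.

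**Figure D3:**
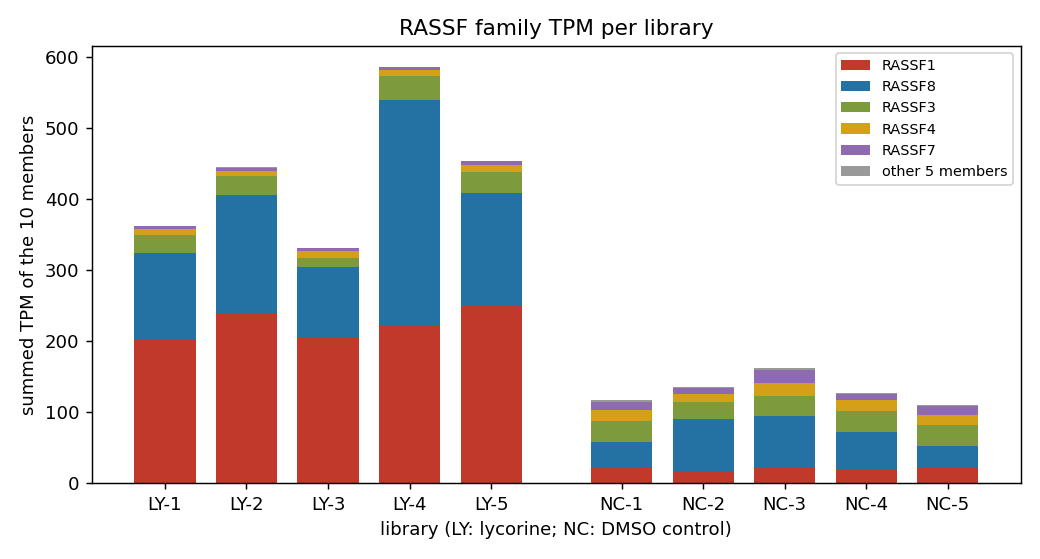
Summed TPM of the 10 RASSF members in each library, LY libraries left of the DMSO controls (NC), stacked by member. LY sums run from 332 to 586 TPM and DMSO sums from 111 to 162 TPM, with RASSF1 and RASSF8 making up most of each LY bar.

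The summed TPM of all 10 members was 436 ± 99.0 in LY and 131 ± 20.0 in DMSO (SD, n = 5 each). RASSF1 made up 52.9 ± 8.91% of it in LY and 15.7 ± 3.49% in DMSO. The share of RASSF8 was 38.0 ± 9.44% in LY and 40.1 ± 11.2% in DMSO, close to each other. Without RASSF1 and RASSF8, the other 8 members summed to 39.4 ± 7.64 TPM in LY and 57.0 ± 8.44 TPM in DMSO. By class, the 6 classical members summed to 258 ± 25.3 TPM in LY and 64.7 ± 7.79 TPM in DMSO. The 4 N-terminal members summed to 178 ± 85.4 TPM in LY and 65.8 ± 21.4 TPM in DMSO. In LY the N-terminal sum was spread more widely than the classical one, with 317 TPM of RASSF8 in LY-4.

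Genes next to RASSF1 were examined because RASSF1 lies in a cluster of candidate tumour suppressor genes at 3p21.3. Of 20 listed neighbours 15 were tested: 5 were higher, 5 lower and 5 did not pass, so that 66.7% were called, against 64.6% of all tested genes. Of the 5 lower ones, SEMA3F and CACNA2D2 reached 1 TPM in the controls only and so entered the fit through that group. The median log2 difference of the 15 was 0.17, close to that of all tested genes (0.17). TUSC2, the adjoining gene at lower coordinates (chromosome 3, 50320027 to 50328251), measured 23.5 ± 1.60 TPM in LY and 22.01 ± 3.66 TPM in DMSO (n = 5 each; log2 difference 0.11 ± 0.12, limma adjusted p = 0.47), and its difference lay between -0.13 and 0.16 over the alternative settings. ZMYND10, the adjoining gene on the other side (50341110 to 50346852), stayed under 0.4 TPM in all libraries and was not tested. Among the neighbours that reached 1 TPM in both groups, the log2 differences lay between -0.97 and 1.22, against 3.42 for RASSF1.

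Among the further neighbours, the kinase gene MAPKAPK3 had the largest increase, with 33.3 ± 4.27 TPM in LY and 13.9 ± 2.74 TPM in DMSO (log2 difference 1.22 ± 0.15, limma adjusted p = 1.72e-05, n = 5 each). TMEM115 (0.61 ± 0.13), a Golgi protein, IFRD2 (0.60 ± 0.16), known from rabbit to bind idle ribosomes, NAA80 (0.47 ± 0.15), the actin acetyltransferase, and RBM5 (0.38 ± 0.10), a splicing regulator, rose by less. SEMA3F, a secreted guidance protein, measured 0.158 ± 0.0811 TPM in LY and 1.54 ± 0.338 TPM in DMSO (SD, n = 5 each), a control-to-LY ratio of 9.76. CACNA2D2, a calcium channel subunit, measured 0.0779 ± 0.0450 TPM in LY and 1.26 ± 0.116 TPM in DMSO (SD, n = 5 each), a control-to-LY ratio of 16.2. At these low levels the log2 difference depends on the pseudocount: it was -1.13 for SEMA3F and -1.07 for CACNA2D2 with a pseudocount of 1, and -2.71 and -2.97 with 0.1. CYB561D2 (-0.97 ± 0.26), an electron carrier, HYAL2 (-0.70 ± 0.22), a hyaluronidase, and NPRL2 (-0.63 ± 0.14), a subunit of the mTORC1 inhibitor GATOR1, fell. Their groups overlapped through NC-2 alone. Without NC-2 the log2 differences were -1.23 for CYB561D2, -0.91 for HYAL2 and -0.76 for NPRL2. SEMA3B (0.40 ± 0.18), HYAL3 (0.37 ± 0.36), RBM6 (0.17 ± 0.19) and HEMK1 (0.085 ± 0.23) did not pass. The calls of NAA80 and RBM5 depended on scaling: NAA80 was lost with median-ratio (limma adjusted p = 0.115) and upper-quartile scaling (0.231) and without mitochondrial genes (0.148), and RBM5 with quantile (0.248) and upper-quartile scaling (0.171). SEMA3B passed after quantile normalization (limma adjusted p = 0.011) and without LY-3 (0.0399), NC-3 (0.0452) or NC-4 (0.0425). Several of these genes overlap each other, among them NPRL2 with CYB561D2, CYB561D2 with TMEM115, HYAL3 with NAA80 and IFRD2, HYAL2 with TUSC2, RBM5 with RBM6, and MAPKAPK3 with CISH, so their values are uncertain where reads are shared.

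**Figure D4:**
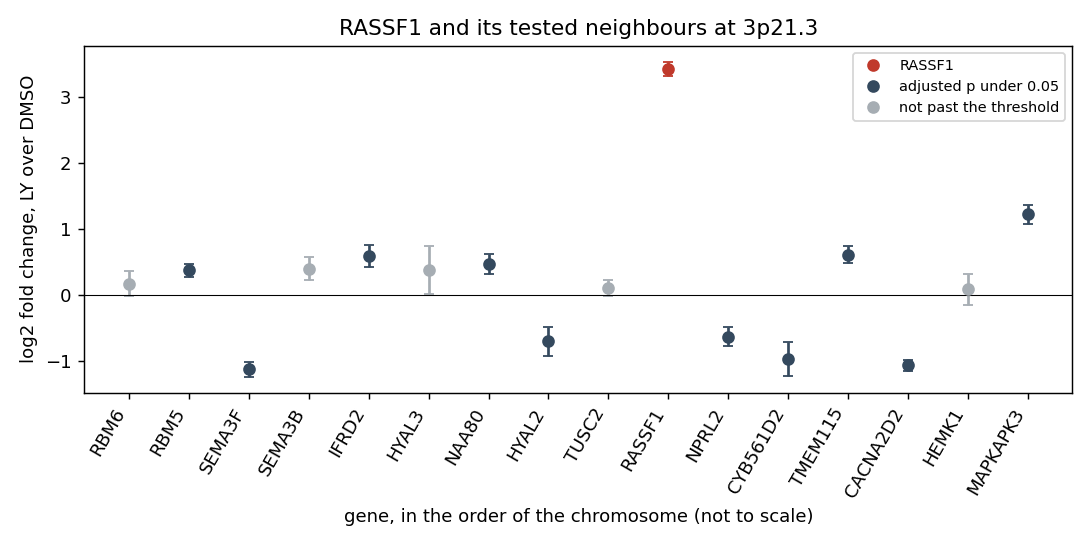
Log2 fold change (LY over DMSO, bars: SE of the limma fit) of RASSF1 and its 15 tested neighbours, in their order along the chromosome and not to scale. With the pseudocount of 1 used here, RASSF1 lies at 3.42 and the neighbours between -1.13 and 1.22; SEMA3F and CACNA2D2, at the low end, lie at -2.71 and -2.97 with a pseudocount of 0.1.

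Partners of the RASSF proteins were called about as often as other genes. Of 24 listed partner genes 23 were tested, of which 13 rose and 2 fell (8 did not pass). That is 65.2% called, 56.5% higher and 8.70% lower, against 64.6%, 39.8% and 24.9% of all tested genes. The median log2 difference of the partners was 0.41, against 0.17 over all tested genes, and none of these list counts was tested. Of the MST kinases, STK3 measured 18.8 ± 2.46 TPM in LY and 11.3 ± 0.957 TPM in DMSO (n = 5 each; log2 difference 0.68 ± 0.11, limma adjusted p = 0.000198). STK4 (0.53 ± 0.22) passed only narrowly (limma adjusted p = 0.0488), overlapped between the groups, and was lost in 14 of 22 alternative settings (adjusted p 0.00681 to 0.222 over all). SAV1, the third SARAH protein of the Hippo core, did not pass (0.19 ± 0.097, limma adjusted p = 0.103).

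The largest decrease among the partners was that of SKP2, the substrate receptor of a ubiquitin ligase known to mark RASSF1A for degradation. SKP2 measured 5.79 ± 1.19 TPM in LY and 47.9 ± 13.9 TPM in DMSO (n = 5 each; log2 difference -2.80 ± 0.23, limma adjusted p = 7.01e-07). NC-2 held 23.7 TPM of SKP2 and the other controls 50.02 to 57.2 TPM, and without NC-2 the difference was -3.03. MDM2, the p53 ubiquitin ligase that binds RASSF proteins, measured 29.1 ± 7.37 TPM in LY and 8.82 ± 3.51 TPM in DMSO (log2 difference 1.66 ± 0.25, limma adjusted p = 9.6e-05, n = 5 each). MOAP1, through which RASSF1A is known to activate BAX, rose (0.99 ± 0.18, limma adjusted p = 0.000365), whereas MAP1S, a microtubule partner of RASSF1A, did not pass (0.49 ± 0.45). MAP1S was wide in both groups, with 12.98 to 54.8 TPM in LY and 13.6 to 52.8 TPM in DMSO.

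**Figure D5:**
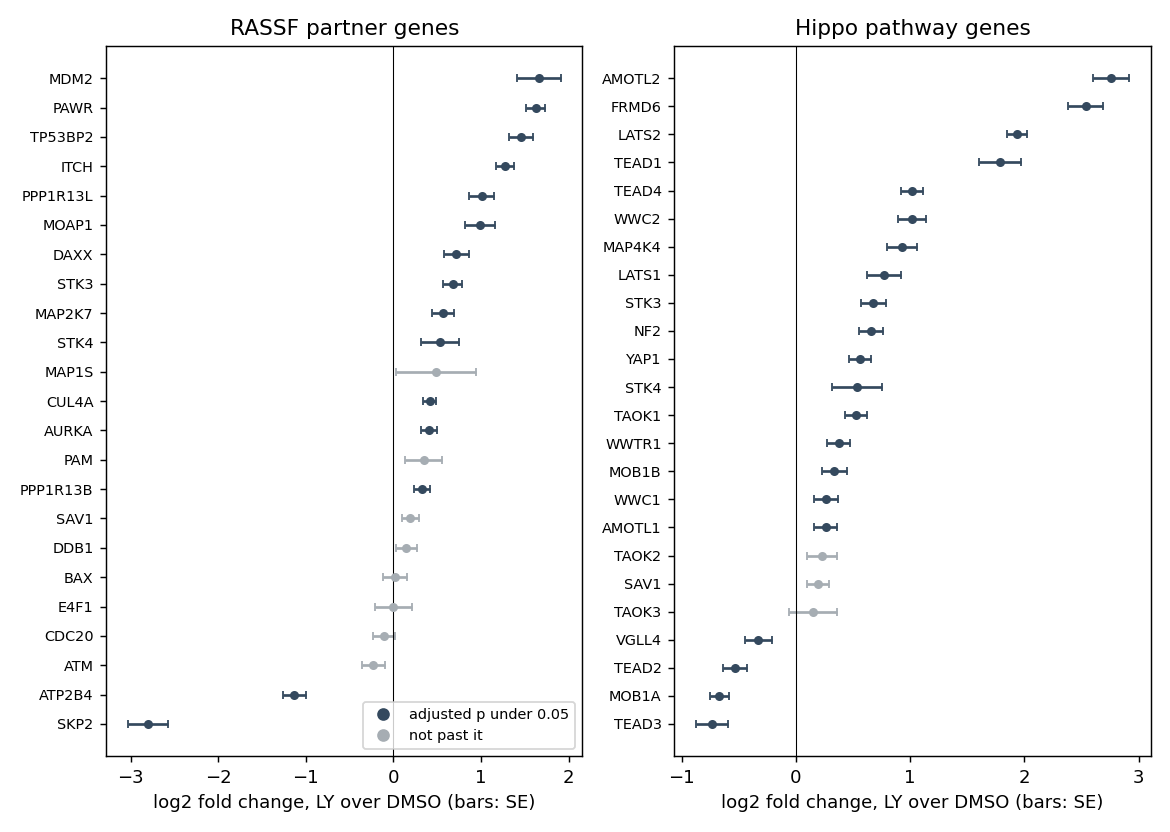
Log2 fold change (LY over DMSO, bars: SE of the limma fit) of the tested RASSF partner genes (left) and Hippo pathway genes (right), dark where the adjusted p is under 0.05. Most dark points lie right of 0; SKP2 at -2.80 is the lowest and AMOTL2 at 2.76 the highest.

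Hippo pathway genes, into which the SARAH members feed, were higher in 17 and lower in 4 of 24 tested, and 3 did not pass. That is 70.8% higher and 16.7% lower, against 39.8% and 24.9% of all tested genes, with a median log2 difference of 0.53 against 0.17. Of the 24, 13 lay higher and 3 lower in LY without overlap, against 32.7% and 16.7% of all tested genes. STK3, STK4 and SAV1 are on the partner list too, so the counts of the lists share them. The list holds kinases, proteins that bind YAP and TEAD factors together, so its counts give no direction of the pathway. LATS2, a kinase that holds YAP out of the nucleus, measured 44.6 ± 1.42 TPM in LY and 10.9 ± 0.974 TPM in DMSO (log2 difference 1.94 ± 0.087, limma adjusted p = 1.26e-08, n = 5 each), and LATS1 rose less (0.77 ± 0.15). AMOTL2 (2.76 ± 0.16), an angiomotin that binds YAP, and FRMD6 (2.54 ± 0.15), an upstream membrane adaptor, rose most. The transcription factor TEAD3 fell most (-0.73 ± 0.14, limma adjusted p = 0.000624). Of the STRIPAK complex, the phosphatase assembly that opposes the MST kinases, 11 of 16 tested genes rose (68.8%, against 39.8% of all tested genes), 1 fell (6.25%, against 24.9%) and 4 did not pass, with a median of 0.50 against 0.17. Its phosphatase subunits PPP2CB (1.27 ± 0.10) and PPP2CA (0.99 ± 0.13), paralogs of similar sequence, rose, and the scaffold gene STRIP2 fell (-0.58 ± 0.11).

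On the Ras side, 9 of 16 tested genes for Ras-type GTPases, the upstream binding partners of the family, rose, 1 fell and 6 did not pass. That is 62.5% called, against 64.6% of all tested genes, with 56.2% higher (against 39.8%) and 6.25% lower (against 24.9%) and a median log2 difference of 0.33 (against 0.17). RRAS2 measured 202 ± 14.9 TPM in LY and 50.9 ± 3.06 TPM in DMSO (log2 difference 1.97 ± 0.086, limma adjusted p = 1.21e-08, n = 5 each), and DIRAS1 fell (-1.17 ± 0.15). Of 15 tested genes on a list of other Ras effectors, which also holds Rap exchange factors, 4 rose (26.7%, against 39.8% of all tested genes). Another 5 fell (33.3%, against 24.9%) and 6 did not pass. The median log2 difference of the 15 was -0.078, against 0.17. The exchange factor RGL3 (-2.62 ± 0.12) and the phospholipase PLCE1 (-2.36 ± 0.13) fell, and the kinase BRAF rose (1.57 ± 0.12).

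Genes that set or remove DNA methylation and Polycomb marks went both ways, with 5 of 13 tested higher (38.5%, against 39.8% of all tested genes), 4 lower (30.8%, against 24.9%) and 4 that did not pass, and a median of 0.32 against 0.17. DNMT3B, a methyltransferase that sets new marks, measured 4.05 ± 0.471 TPM in LY and 14.7 ± 1.996 TPM in DMSO (log2 difference -1.63 ± 0.11, limma adjusted p = 2.22e-07, n = 5 each). TET3, which oxidises methylated cytosine, measured 23.2 ± 0.933 TPM in LY and 7.995 ± 0.395 TPM in DMSO (log2 difference 1.43 ± 0.082, limma adjusted p = 5.68e-08, n = 5 each). These 2 genes were named for their large changes and do not stand for the list. DNMT1 did not pass (160 ± 6.41 TPM in LY and 172 ± 18.8 TPM in DMSO, limma adjusted p = 0.349). TET1 was lower in LY (0.179 ± 0.0734 TPM, against 1.12 ± 0.191 TPM in DMSO) and was not tested. Over all 119 tested pathway genes outside the family, 62 rose (52.1%, against 39.8% of all tested genes) and 22 were lower (18.5%, against 24.9%), SEMA3F and CACNA2D2 among them. This split moved with the scaling. Median-ratio scaling gave 49 higher and 31 lower, quantile normalization 50 higher and 34 lower, and upper-quartile scaling 42 higher and 35 lower. Removal of mitochondrial genes gave 47 higher and 31 lower, and leaving out NC-2 before median-ratio scaling 56 higher and 32 lower. The shares of all tested genes under these settings are not given, so the counts do not compare the lists with other genes. The scaling alternatives moved the median of all genes to values between -0.058 and 0.050, down from 0.17 as deposited. The downward shift was therefore not limited to the pathway lists, and the changed counts are not read as a property of them.

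The tested genes outside the family whose profile over the 10 libraries was most like that of RASSF1 included IL6R, TNFRSF12A, ADM, PLA2G4C and SH2D5. Likeness was the root mean square difference between log2(TPM + 1) values, each centred on the DMSO mean of its gene. This measure mostly follows the LY over DMSO difference, on which RASSF1 was chosen, and the genes were picked for small values. The values are therefore a description, and shared regulation was not tested. The root mean square difference was 0.265 for IL6R, 0.274 for TNFRSF12A, 0.278 for ADM, 0.340 for PLA2G4C and 0.360 for SH2D5, against a median of 2.31 over all tested genes. Among relatives it was 1.39 for RASSF8, 2.55 for RASSF3, 2.94 for RASSF4 and 3.21 for RASSF7. IL6R, the interleukin 6 receptor, measured 17.8 ± 1.59 TPM in LY and 1.18 ± 0.405 TPM in DMSO (SD, n = 5 each). TNFRSF12A overlaps CLDN6, and antisense genes overlap IL6R and PLA2G4C.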

How the data were processed

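RNA sequencing gave 10 PANC-1 libraries, 5 labelled LY and 5 DMSO. The authors deposited 1 table of TPM per gene and library; each column sums to 999932 to 999967. Neither the aligner nor the counter, the annotation or the use of strand is given in the sources at hand, and the submitters' processing notes list the builds GRCm38, mm10 and hg38 without roles. The gene IDs are human. Control columns are named NC, which is in no sample title; they were taken as the DMSO group, without replicate numbers. The design text counts 4 samples a group and the labels 5, and all columns were used. That text names Trizol, the labels an RNeasy kit. Of 20263 IDs, 20148 found a symbol in a name table and 76 in GENCODE release 29, which also gave hg38 positions, and 39 stayed unnamed.

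The 11663 genes that reached 1 TPM in 5 or more libraries were fitted with limma 3.58.1 (R 4.3.3) on log2(TPM + 1), with the group as the only term and a mean-variance trend, and p-values were adjusted after Benjamini-Hochberg over all of them. Fold changes are LY over DMSO and understate changes of low genes. The fit was tested on simulated data with independent noise per gene and no library effect. That test does not cover a library that stands apart, such as NC-2. The members, the 7 gene lists and the rule for named genes were chosen with earlier results of these data known. Named are the 10 members, 8 partners by name, the tested neighbours at 3p21.3, and of each other list the 2 called genes with the largest change and the largest one the opposite way, plus the 6 genes most like RASSF1, of which 1 is not reported here. DNMT1, TET1 and some genes that overlap or adjoin others are named outside this rule. Alternatives were other pseudocounts, filters, scalings, moderation, and each library left out in turn.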

Additional observations from a re-analysis of the deposited data

Results flagged for a closer look

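Values were examined in each group for 1 library far from the other 4 (gap over range above 0.71). Covered were the members, the other genes named by the rule, the summed family TPM and the RASSF1 share of that sum. This marked 9 of 106 sets of values, where chance marks about 1 in 20, and 5 of the 9 were in NC-2, the control with 37.5% mitochondrial TPM. Among members, NC-2 was low in RASSF3 (23.3 TPM, other controls 28.5 to 30.4 TPM), and NC-4 held 0.0188 TPM of RASSF6, which was listed at 0 in the other controls. Outside the family, NC-2 was low in SKP2 (23.7 TPM, others 50.02 to 57.2), CYB561D2 (3.79 TPM, others 10.3 to 11.4), IFRD2 (48.0 TPM, others 77.4 to 87.3) and PLA2G4C (1.13 TPM, others 3.94 to 4.57). In LY, LY-3 was high in PPP2CA (242 TPM, others 168 to 184) and RBM5 (83.1 TPM, others 67.3 to 71.3), and LY-2 in TET3 (24.8 TPM, others 22.5 to 22.9).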

How the results depend on the processing

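The log2 difference of RASSF1, whose rise chose the family, ran between 3.18 (upper-quartile scaling) and 3.48 (pseudocount 0.1). The number of members called lower was 4 in place of 2 without a filter and with a filter of 0.5 TPM (chosen after seeing the data), because RASSF2 and RASSF5 then entered, with the 0.5 TPM filter through the controls alone. With a pseudocount of 0.1 the differences of SEMA3F and CACNA2D2 were -2.71 and -2.97. Pathway genes called lower numbered 34 after quantile normalization and 35 after upper-quartile scaling, against 22. The shares of all tested genes under those scalings are not given. Their median log2 difference moved down as well, from 0.17 to 0.050 and -0.058, so no shift of the pathway genes alone is read from these counts. The mean family sum in DMSO moved to 162.9 TPM when mitochondrial genes were removed and TPM rescaled. Leaving out 1 library at a time gave 7147 to 8217 called genes, with 4400 to 4607 higher (4639 with all libraries) and 2633 to 3610 lower (2899). The median log2 difference of all tested genes was 0.099 without NC-2, and 0.157 to 0.188 with any other library left out. Over these left-out libraries the log2 difference ran from -0.27 to 0.035 for RASSF3, from -0.15 to 0.20 for HEMK1, from -0.021 to 0.55 for HYAL3 and from -0.0021 to 0.16 for TUSC2. Signs turned for genes that did not pass: RASSF3 without LY-3 (0.035); TUSC2 with median-ratio (-0.034), quantile (-0.077) and upper-quartile scaling (-0.13), without mitochondrial genes (-0.045), without NC-2 (-0.0021) and with both changes (median-ratio scaling, no NC-2; -0.077); HEMK1 with median-ratio (-0.031) and upper-quartile scaling (-0.12), without mitochondrial genes (-0.038), without NC-2 (-0.15) and with both changes (-0.22); HYAL3 without NC-2 (-0.021) and with both changes (-0.091); RBM6 with quantile (-0.063) and upper-quartile scaling (-0.069); and SAV1 with upper-quartile scaling (-0.037). The cause was not tested. No paired analysis was possible because the control columns carry no replicate number of the labels. Depth is unknown, which limits what the members under 1 TPM can show.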
